A study of Ipomoea batatas with 12 samples.

Results

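The genes described here were abundant in the flesh of the sweetpotato storage root, less abundant in its skin, and still read in skin. They were chosen from measured counts. A gene's counts were divided by the total of its library and given per 1000000 counts (CPM), and its level had to reach a mean of 150 CPM in the flesh of both lines. Its flesh level had to be at least 4 times its skin level in each line, and it had to have more than 3 counts over the 6 skin libraries. Of the 225111 genes in the deposited table, 164 met these conditions.

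The groups were flesh of the natural mutant line MT, flesh of the wild-type line M1-125 (WT) from which it arose, skin of MT and skin of WT, with 3 libraries each and 12 in all. The roots were grown on an experimental farm and sampled 120 days after planting, all without a treatment other than normal growth. The labels do not say what is mutated in MT, nor whether the replicates were separate plants. Each p-value therefore sets a difference between groups against the spread of these libraries only, which may be partly technical. Library totals ran from 15893593 to 18258638 counts in MT flesh, from 17197979 to 20276417 in WT flesh, from 8507461 to 10715197 in MT skin and from 9620235 to 15065079 in WT skin.

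The flesh of a sweetpotato storage root is mainly parenchyma, the tissue that stores starch and storage proteins such as sporamin. The skin is a periderm, whose outer cork cells carry suberin, and pigments such as anthocyanins and carotenoids give the root its colours. Sweetpotato is a hexaploid, so a gene usually has several closely similar copies on its sets of chromosomes.

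The deposited table gives identifiers and gene lengths but no gene names, and 0 of these identifiers appeared in the sweetpotato gene table at hand, which belongs to another assembly (IBA_r1.0). Roles of single genes are therefore not given, and the tissue labels could not be checked against named marker genes. Identifiers are given here without their common start Ibat.Brg_v3, as in 01BG002710. The leading number was taken for the chromosome, the letter for the haplotype, meaning 1 of the sets of chromosomes, and the last digits, called running numbers, for the position in order. This reading is an assumption. All running numbers were multiples of 10. How reads were divided among near-identical copies is not given in the sources used here, so the counts of any single copy are uncertain.

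In flesh the 164 genes together took 8.39% ± 0.0421 of all counts in MT and 8.10% ± 0.0311 in WT, and in skin 0.737% ± 0.00255 in MT and 0.822% ± 0.0138 in WT (SD, n = 3 libraries). Their median flesh level was 299 CPM in MT and 307 CPM in WT, with quartiles of 209 and 507 CPM in MT and of 213 and 508 CPM in WT. Their median skin level was 24.1 CPM in MT and 26.9 CPM in WT. These tissue differences were what chose the genes, so they are given as a description and were not tested. In bulk tissue, fewer cells of a type and less RNA per cell cannot be told apart.

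The highest flesh level by CPM over both lines was that of 01BG002710, which came first in MT and second to 09DG001600 in WT. Its flesh level was 4646, 4418 and 4743 CPM in the 3 MT libraries, against 2830.0, 3065 and 3048 CPM in the WT libraries. In skin it stood at 229 CPM in each of the MT libraries, against 365, 454 and 397 CPM in the WT libraries. Every MT flesh library was above every WT flesh library, and every MT skin library was below every WT skin library. Next came 09DG001600, with 3319, 3406 and 3397 CPM in MT flesh and 3988, 3908 and 4135 CPM in WT flesh. Its skin levels were 24.5, 20.4 and 20.8 CPM in MT and 13.5, 14.9 and 13.0 CPM in WT. The lines did not overlap in either tissue, but the flesh values did not pass edgeR's test (adjusted p = 0.211), while in skin MT was 1.63-fold higher (edgeR adjusted p = 5.26e-05).

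Per kilobase of gene length, 01BG002710 again had the highest mean over both lines, at 3028 CPM per kb in MT flesh and 1961 CPM per kb in WT flesh. The next by this mean was a gene of 616 bases numbered 09, at 1719 CPM per kb in MT flesh and 2142 CPM per kb in WT flesh, which put it above 01BG002710 in WT. Of the 10 highest per length, 4 were numbered 01. The median over the 164 genes was 170.0 CPM per kb in MT flesh and 169 CPM per kb in WT flesh, so the strongest genes stood far above the rest. Their lengths had a median of 1960.5 bases, against 2124 bases for the other 402 genes at this flesh level and 1773 bases for all tested genes.

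**Figure D1:**
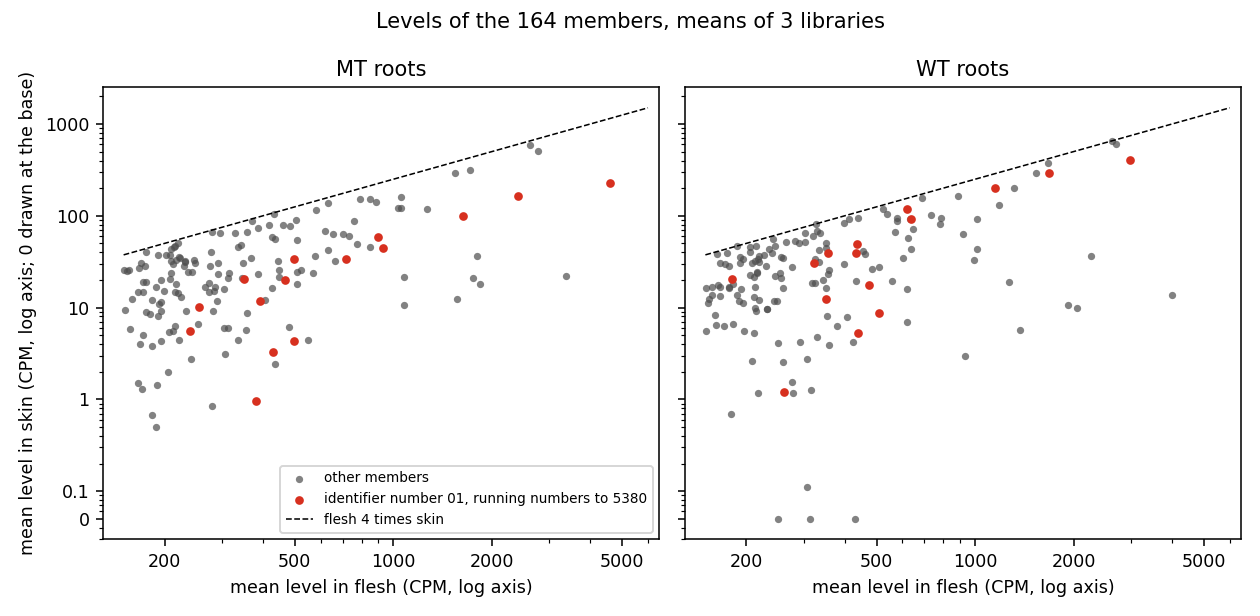
Mean level in flesh (x axis, CPM, log scale) and in skin (y axis, CPM, log scale) of the 164 genes in MT (left) and WT (right), each point a gene and the mean of 3 libraries. The points lie under the dashed line by choice, and the 15 genes of identifier number 01 with running numbers up to 5380, in red, lie further below it in MT than in WT, apart from 2 of them.

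The flesh level was a median of 14.8 times the skin level in MT and 10.9 times in WT. In MT, 62 genes were under 10 times, 78 between 10 and 50 times and 24 at 50 times or more, and in WT the counts were 76, 58 and 27. By the mean log2 difference over both lines, the widest gap belonged to 10CG018600, with 281, 286 and 274 CPM in MT flesh and 433, 413 and 442 CPM in WT flesh, and with 8, 16 and 2 counts in MT skin and 0 counts in each WT skin library. By the same mean 10FG015130 was next, with 183, 185 and 196 CPM in MT flesh and 323, 312 and 305 CPM in WT flesh, on 4, 2 and 8 counts in MT skin and 0 counts in each WT skin library. These genes were barely read in skin at all.

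The chosen set has neighbours on both sides of each limit. At the limit on level, the lowest gene inside had 150.3 CPM in MT flesh and the next outside 149 CPM. In WT flesh these values were 150.2 CPM and 143 CPM. At the limit on the ratio, the closest genes inside and outside stood at 4.15 and 3.93 times in MT and at 4.02 and 3.98 times in WT. The limit on skin counts left out 1 gene, which had 165 CPM in MT flesh, 243 CPM in WT flesh and 0 counts in all skin libraries, while the lowest inside had 14 counts over them. In all, 566 genes reached the level in both lines, and 165 of these also the ratio.

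The first comparison asked whether levels in flesh differed between MT and WT, which the choice of genes did not use, although a level of 150 CPM in both lines bars the largest differences. Of the 164 genes, 45 rose and 14 fell in MT flesh, and 105 did not pass the test (edgeR's quasi-likelihood test, adjusted by Benjamini-Hochberg over 80351 genes at 0.05). Over all tested genes 3.75% rose and 1.21% fell. The 164 genes reached 27.4% and 8.54%, and the other 402 genes at this flesh level, which are also well counted, 24.4% and 5.47%. The median log2 difference was 0.11 for the 164 genes, 0.07 for the other 402 and 0.00 for all tested genes. With library totals in place of TMM scaling, 32 rose and 21 fell, so 60.4% of the calls were rises in place of 76.3%. The number of falls was 8 without WT flesh replicate 2, 7 without WT flesh replicate 3, 8 without MT flesh replicate 1, 9 without MT flesh replicate 2 and 8 without MT flesh replicate 3.

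The largest rise in flesh was that of 11EG004780, with 354, 341 and 339 CPM in MT flesh, against 152, 154 and 148 CPM in WT flesh. It was 2.45-fold higher (log2 difference 1.29, SE 0.13, edgeR adjusted p = 2.17e-05), and the lines did not overlap. Its skin levels of 23.5, 13.7 and 25.2 CPM in MT and 15.9, 17.7 and 15.4 CPM in WT overlapped. The second was 10EG020820, with 553, 556 and 536 CPM in MT flesh and 269, 283 and 279 CPM in WT flesh, 2.12-fold higher (log2 difference 1.09, SE 0.11, edgeR adjusted p = 2.43e-05). This gene rose in skin too, to 5.97, 3.57 and 3.76 CPM in MT, against 1.78, 1.13 and 0.624 CPM in WT (log2 difference 1.97, SE 0.26, edgeR adjusted p = 0.000297). Levels in MT libraries were thus above all WT libraries in both tissues.

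The largest fall in flesh was that of 14BG019250, with 224, 224 and 218 CPM in MT flesh, against 459, 452 and 468 CPM in WT flesh (log2 difference -0.95, SE 0.07, edgeR adjusted p = 4.11e-07). Its skin levels overlapped, at 32.9, 32.8 and 40.9 CPM in MT and 38.1, 39.4 and 38.4 CPM in WT. Then came 08DG010750, with 497, 526 and 499.7 CPM in MT flesh and 1033, 998 and 947 CPM in WT flesh (log2 difference -0.87, SE 0.10, edgeR adjusted p = 3.8e-05). In skin it also fell, to 17.2, 17.6 and 19.98 CPM in MT, against 27.3, 39.8 and 31.0 CPM in WT (log2 difference -0.81, SE 0.11, edgeR adjusted p = 0.000535). Among the genes that rose in flesh the median log2 difference was 0.51, and among those that fell it was -0.58.

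In skin, MT was likewise compared with WT. The series' title asks about regulators of skin colour, but without gene names no link of these genes to colour could be examined. Rises and falls were about equally common among the 164 genes. There were 43 rises, 42 falls and 79 genes that did not pass the edgeR test. Over all tested genes 3.64% rose and 3.21% fell, while the 164 genes reached 26.2% and 25.6%. The other 402 genes at this flesh level reached 25.9% and 18.7%. These sets were not equally well counted in skin, where the 164 genes took 0.737% of counts in MT and 0.822% in WT. The other 402 took 10.3% to 10.5% in the skin libraries. The median log2 difference was -0.05 for the 164 genes, 0.08 for the other 402 and 0.00 for all tested genes. The limit of 4 times used the skin level of each line. Of the other 402, 29 reached it in MT only and 11 in WT only, so the choice of genes bears on the rises and falls of both sets. A fit of the skin libraries alone gave 25 rises and 30 falls, and it left out 5 of the 164 genes for low counts.

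The deepest fall in skin was that of 01BG002680, to 1.31, 0.993 and 0.588 CPM in MT, against 6.22, 10.02 and 9.77 CPM in WT. Its level was 8.55-fold lower (log2 difference -3.10, SE 0.26, edgeR adjusted p = 5.99e-06) on 14, 10 and 5 counts in the MT libraries. In flesh it had 396, 359 and 383 CPM in MT and 449.8, 545 and 531 CPM in WT, which did not pass the test (edgeR adjusted p = 0.183). The second was 01CG002140, with 4.01, 6.26 and 2.59 CPM in MT skin and 14.3, 18.1 and 19.9 CPM in WT skin, 3.89-fold lower (log2 difference -1.96, SE 0.21, edgeR adjusted p = 5.54e-05). Its flesh levels were 527, 459 and 509 CPM in MT and 431, 479.8 and 509 CPM in WT, which overlapped.

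The largest fitted differences in skin were those of genes with no counts in WT skin. Such genes met the condition of more than 3 skin counts through MT skin alone, so the choice of genes favoured a higher MT value. Their values are therefore a description, with no p given. There were 3 of them, all counted among the 43 rises, and 40 rises came from the other 161 genes. The gene 11DG018050 had 4, 14 and 22 counts in MT skin, or 0.373, 1.39 and 2.59 CPM, and 0 counts in each WT skin library. Against 3 counts over the WT skin libraries, or 0.0862 CPM, its mean MT skin level was 16.8-fold higher. For 10CG018600 the same figure was 9.94-fold. For another such gene, 10FG015130, named above for its flesh over skin gap, it was 5.85-fold. These figures allow for counting error in WT skin only. They do not allow for the spread of the MT skin libraries, and they rest on levels of a few CPM at most.

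Of the 20 genes with the widest gap between flesh and skin over both lines, 12 rose in MT skin, 1 fell and 7 did not pass the test. Without the 3 genes that had no counts in WT skin, 9 of 17 rose, beside the 25.9% of the other 402 genes and 3.64% of all tested genes given above. Their summed skin level was 133, 124 and 109 CPM in the MT libraries, against 84.7, 74.0 and 68.8 CPM in the WT libraries. All 3 MT skin libraries were above the WT skin libraries. These 20 were picked with the same skin libraries, so the count is a description. Among the 566 genes at the flesh level, the tenth lowest skin level as a share of the flesh level was 0.708%, 0.732% and 0.617% in the MT skin libraries and 0.493%, 0.372% and 0.361% in the WT skin libraries. Of the same 566 genes, 1 had 0 counts in each MT skin library, and 4, 4 and 5 had 0 counts in the WT skin libraries. The part of this low level of flesh genes in the rises was not tested.

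Flesh and skin were then set side by side. They rest on different libraries but on 1 estimate of spread. Of the 164 genes, 19 rose in both tissues and 3 fell in both. In 11 the level rose in MT flesh and fell in MT skin, and in 4 it fell in MT flesh and rose in MT skin, 2 of which are genes with no counts in WT skin. Of the 164 genes, 11.6% rose in both, against 10.7% of the other 402 and 1.1% of all tested genes. The share that fell in both was 1.83%, against 1.74% and 0.235%. The share that rose in flesh and fell in skin was 6.71%, against 4.73% and 0.284%. The reverse made up 2.44%, against 0.995% and 0.123%. Without the 3 genes that had no counts in WT skin, the reverse was left in 2 of 161 genes. These shares of the 164 genes were thus nearer to those of the other abundant flesh genes than to those of all genes, and the differences were not tested. The choice of genes used the skin levels and bears on these shares too. The calls in a single tissue were 15 rises and 7 falls in flesh, and 20 rises and 28 falls in skin, and 57 genes passed in neither. Of the 19 genes that rose in both, 8 were numbered 10, or 42.1%, against 4.65% of such genes among the other 402 and 5.41% among all tested genes. Number 10 made up 11.6% of the 164 genes, 5.47% of the other 402 and 6.64% of all tested genes, whatever their calls. The difference among the genes that rose in both was seen in the data and not tested. Of these 8, 7 had lengths between 1974 and 2225 bases, and their log2 differences were between 0.35 and 0.70 in flesh and between 0.41 and 0.84 in skin.

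**Figure D2:**
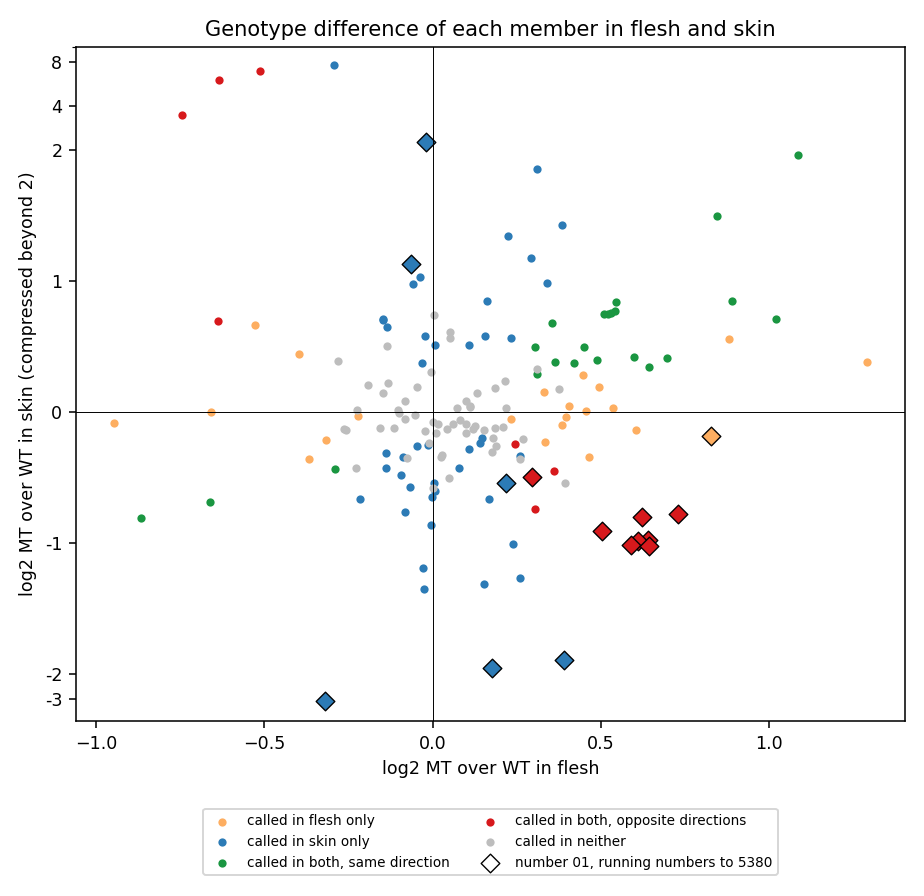
Log2 difference of MT over WT in flesh (x axis) and in skin (y axis, compressed beyond 2) for each of the 164 genes, coloured by the tissues in which it passed edgeR's test at 0.05. The diamonds, the 15 genes of identifier number 01 with running numbers up to 5380, lie mostly at the lower right. Of these, 9 passed as higher in MT flesh, 12 passed as lower in MT skin, and 2 passed as higher in MT skin.

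The difference between the tissues was tested itself, as the flesh over skin ratio in MT set against that in WT. The ratio was higher in MT for 40 genes and lower for 21, and 103 did not pass (edgeR's quasi-likelihood test, adjusted by Benjamini-Hochberg). Over all tested genes 3.08% were higher and 1.46% lower, and the shares of the 164 genes were 24.4% and 12.8%. The other 402 genes had 24.4% and 11.4%. Of these 402, 29 reached 4 times the skin level in MT only and 11 in WT only, so the choice of genes bears on the shares of both sets. All 11 genes that rose in flesh and fell in skin passed with a higher ratio, and all 4 of the reverse kind with a lower one. This followed largely from those calls, since the ratio difference is the flesh difference minus the skin difference in the same fit. The 21 lower ratios include the 3 genes with no counts in WT skin, and 18 remain without them. The highest was 01BG002680, whose flesh level was 394 times its skin level in MT and 58.6 times in WT (log2 difference of the ratios 2.77, SE 0.29, edgeR adjusted p = 4.13e-05).

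Second was 01BG002640, at 131 times in MT and 28.4 times in WT (2.29, SE 0.45, edgeR adjusted p = 0.00822). Its flesh level varied widely between libraries, at 256, 462 and 566 CPM in MT and 309, 435 and 306 CPM in WT, and these overlapped. In skin it fell to 2.24, 4.27 and 3.29 CPM in MT, against 9.18, 15.1 and 12.7 CPM in WT (edgeR adjusted p = 0.00766). At the other end stood 11DG018050 and 10CG018600, genes that entered through MT skin counts alone, as said above, so no p is given. Their fitted log2 differences depend on the prior count and give no bound. The flesh levels of 11DG018050 were 196, 186 and 188 CPM in MT and 223, 276 and 250.0 CPM in WT, which did not pass the test (edgeR adjusted p = 0.486).

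**Figure D3:**
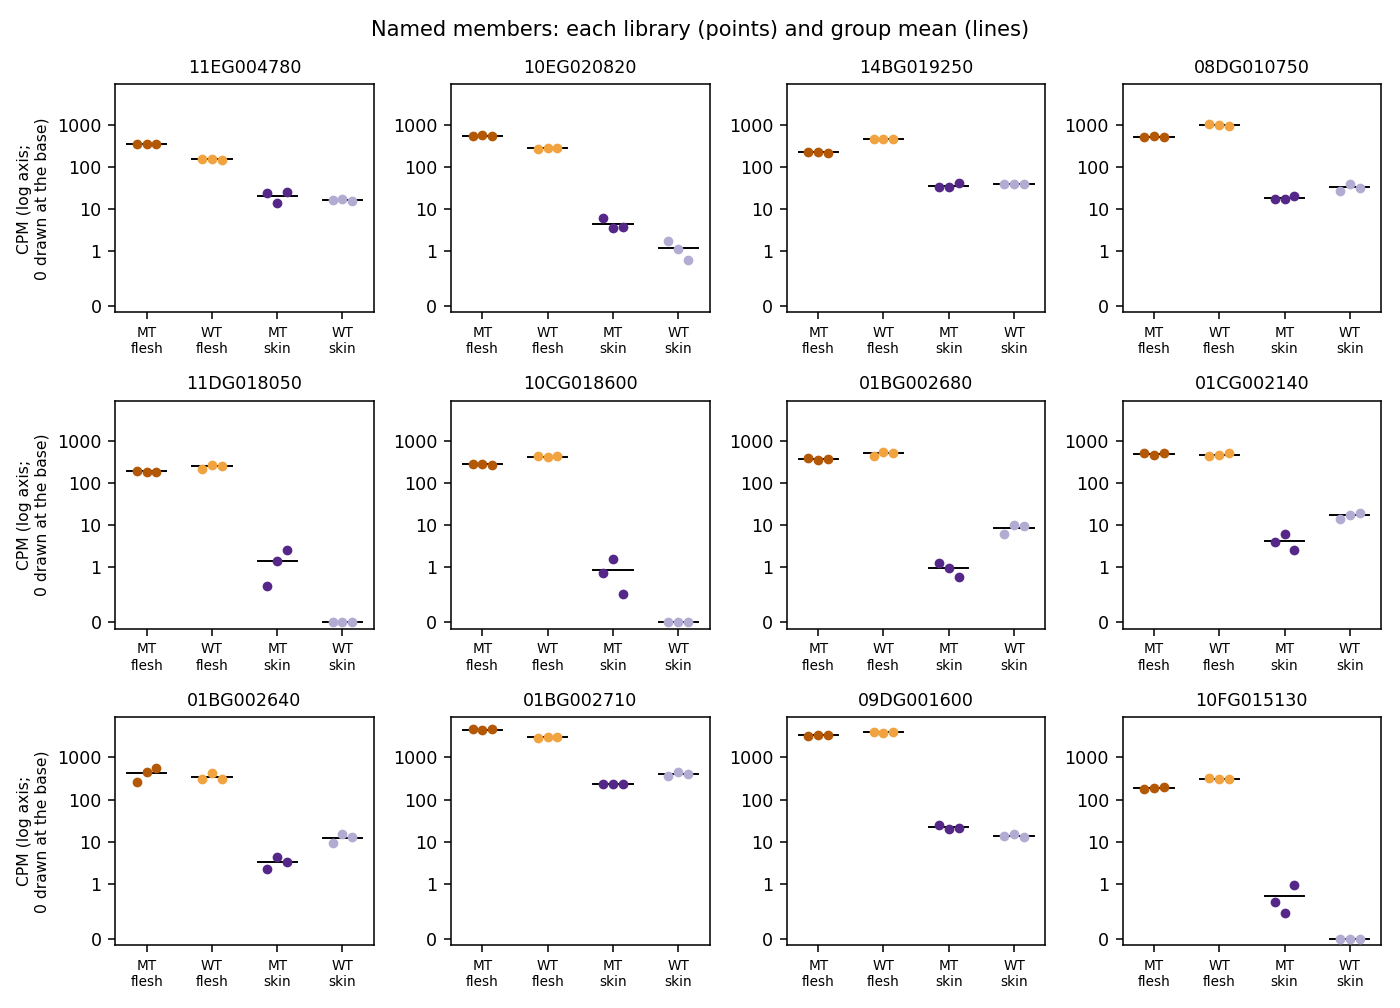
Level of each of the 12 named genes in every library (y axis, CPM, log scale, with 0 drawn at the base), with MT flesh, WT flesh, MT skin and WT skin from left to right and a line at each mean of 3 libraries. In 01BG002710 the MT points lie above WT in flesh and below WT in skin, and 3 genes have all WT skin points at 0.

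By identifier number, 24 of the 164 genes, or 14.6%, were numbered 01, against 10.7% of the other 402 genes and 8.81% of tested genes. The next most frequent was 10, with 19 genes or 11.6%, against 5.47% of the other 402 genes and 6.64% of tested genes. Every number from 01 to 15 had at least 6, and 1 gene lay outside the numbered blocks. The letters were even, from 23 for A to 29 for D and E. Of the 24 numbered 01, 15 had running numbers between 2040 and 5380, spread over 6 letters, with lengths from 588 to 1520 bases.

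This group of 15 held most of the opposite changes in flesh and skin. In MT flesh 9 rose and 0 fell, and in MT skin 2 rose and 12 fell. The flesh over skin ratio was higher in MT for 13 and lower for 2. The median log2 difference was 0.50 in flesh and -0.91 in skin. Of the 11 genes that rose in flesh and fell in skin, 8 were in this group, as were 12 of the 42 falls in skin. Without the group the 149 other genes had 36 rises and 14 falls in flesh and 41 rises and 30 falls in skin. Among the other 402 genes at this flesh level, 24.4% rose and 5.47% fell in flesh, and 25.9% rose and 18.7% fell in skin. Over all tested genes these shares were 3.75% and 1.21% in flesh and 3.64% and 3.21% in skin. Within the group, the 2 that rose in skin were those on letters C and D at running numbers 3780 and 3430. Their skin levels were 11.7 and 5.51 CPM in MT and 5.23 and 1.20 CPM in WT, and their flesh levels did not pass the test. The group was delimited after the values were seen, so it got no test of its own. The rises in flesh were moderate, with 01BG002710 at 1.66-fold (log2 difference 0.73, SE 0.07, edgeR adjusted p = 5.58e-06), and its fall in skin was 1.72-fold (log2 difference -0.78, SE 0.07, edgeR adjusted p = 8.45e-06).

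Of these 15 genes, 11 lay within 200 running numbers of another on the same letter, in stretches on A, B, C and E. On letter B there were 5, between running numbers 2640 and 2750. The stretches, widened by 100 running numbers on each side, held further genes. Of those that reached 10 CPM in a group, 25 had a flesh level at least 4 times the skin level in both lines, 7 had the reverse, and 8 had neither. The 25 included the 11 described here and 14 that did not reach 150 CPM in the flesh of both lines. In the 14, 4 rose in MT flesh and 4 fell in MT skin, and none of them fell in flesh or rose in skin. Over all tested genes 3.75% rose in flesh and 3.21% fell in skin, and of the other 402 genes 24.4% and 18.7%.

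The 7 skin genes of these stretches had like lengths, 675 to 1075 bases with a median of 912, against a median of 961 for the 25. In flesh they had 1.09 to 155 CPM in MT and 0 to 0.304 CPM in WT, and in skin 55.4 to 4841 CPM in MT and 68.9 to 3855 CPM in WT. All 7 rose in MT flesh by the edgeR test, against 3.75% of all tested genes and 24.4% of the other 402. Some of these calls rest on levels near 0, such as 1.09 CPM in MT flesh and 0 CPM in WT flesh for 01AG004980 (edgeR adjusted p = 0.0176). Genes with opposite preference for flesh and skin thus stood next to each other, and both kinds had genes that were higher in MT flesh. So did the 8 with neither preference, of which 5 rose and 0 fell there. The median log2 difference in flesh was 0.61 for the 25 and 0.72 for the 8, while the 7 had at most 0.304 CPM in WT flesh. In MT skin 2 of the 7 rose and 1 fell, against 0 and 14 of the 25 and 0 and 0 of the 8.

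**Figure D4:**
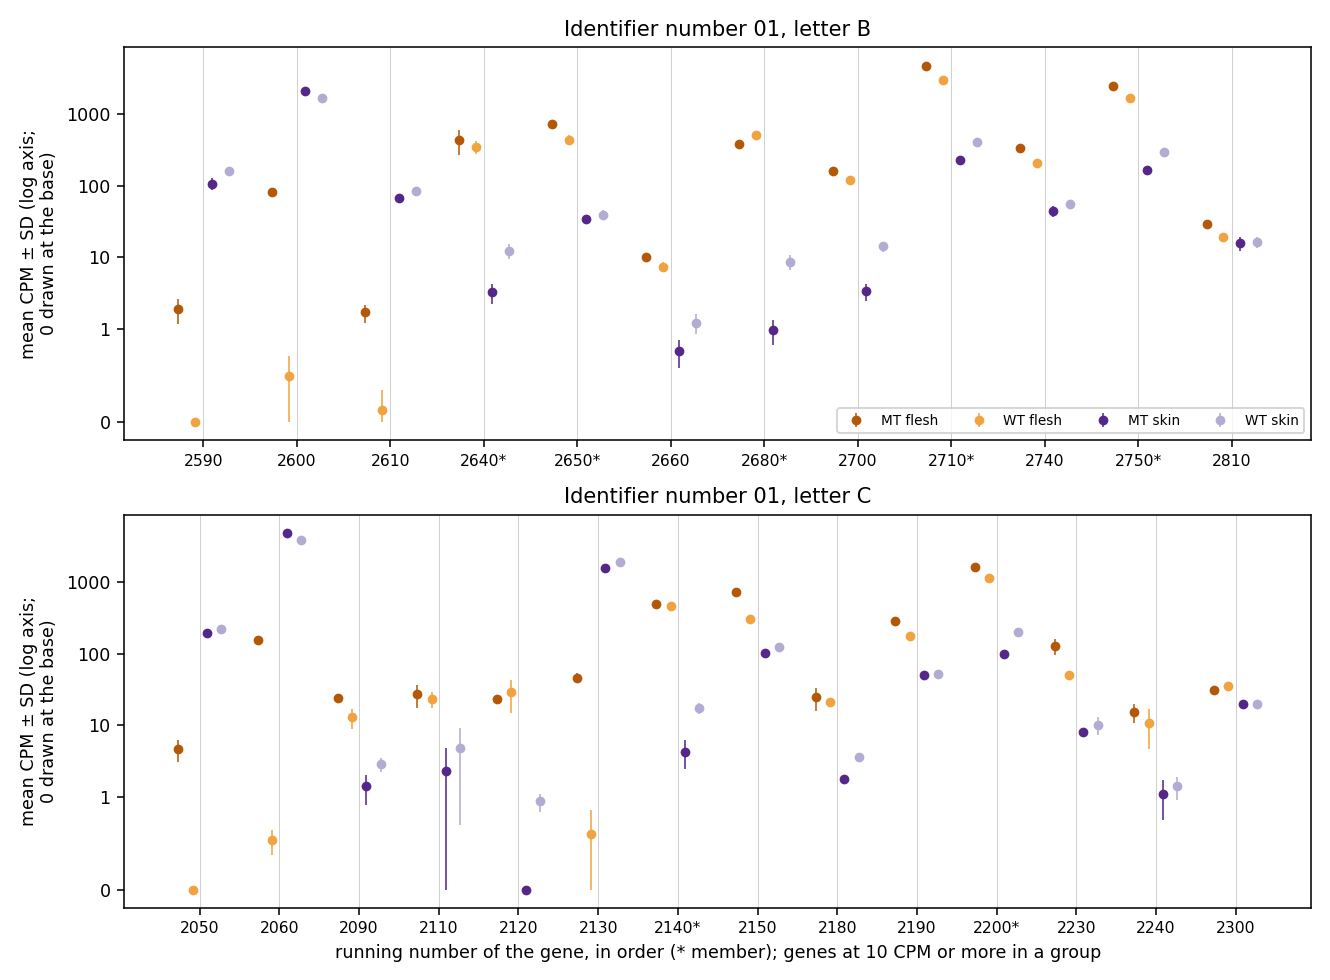
Mean level ± SD of 3 libraries (y axis, CPM, log scale, with 0 drawn at the base) of genes along the stretches of identifier number 01 on letters B (top) and C (bottom), in order of running number, with MT flesh, WT flesh, MT skin and WT skin from left to right at each gene. Starred genes belong to the 164, and the skin genes 2590 to 2610 on B stand beside flesh genes from 2640 on.

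Copies on different letters were sought as genes with the same number and the same length, which length alone cannot prove. Of the 164 genes, 8 fell into such sets, 4 numbered 08 with 1620 bases and 4 numbered 13 with 3231 bases. The 4 numbered 08 differed widely in flesh level, from 303 to 1808 CPM in MT and from 358 to 2267 CPM in WT, although their lengths were equal. Their genotype differences in flesh were close, at -0.14, -0.08, -0.22 and -0.13 on the log2 scale for A, C, D and F, and none passed the edgeR test. In skin, only the copy on A passed, with 5.95 CPM in MT and 3.86 CPM in WT (log2 difference 0.65, edgeR adjusted p = 0.00384).

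The 4 genes numbered 13 all rose in MT flesh. The copy on A had 733 CPM in MT flesh and 637 CPM in WT flesh, and those on B, D and E had 291, 284 and 275 CPM in MT and 215, 214 and 216 CPM in WT. Their log2 differences in flesh were 0.30, 0.54, 0.51 and 0.45 for A, B, D and E (edgeR adjusted p = 0.00632, 0.00178, 0.00856 and 0.00462). In skin the copies on A and D also rose, with log2 differences of 0.49 and 0.75 (edgeR adjusted p = 0.000329 and 0.00384). The values on B and E were 0.03 and 0.28, with edgeR adjusted p = 0.924 and 0.099. 

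With lengths within 3% and running numbers within 1000, 24 genes fell into 9 sets. Of the genes numbered 13 above, only those on A and D stayed together, as those on B and E lay at running numbers 8260 and 14340. Of those numbered 08, the gene on F at running number 10370 dropped out. In 4 of the 9 sets all genes had the same call in flesh and the same call in skin, and 5 were mixed. The most divided was a set of 6 numbered 01, in which 3 genes fell, 2 rose and 1 did not pass in skin, while 2 rose and 4 did not pass in flesh. Its running numbers ran from 2140 to 3780, beyond the limit of 1000, and it held genes on the same letter. It was thus joined through genes in between, and its mixed calls cannot be read as copies that differ. The pair numbered 09, of 1145 bases on E and 1171 bases on F, passed in skin alone. The copy on E had 42.4 CPM in MT skin and 87.6 CPM in WT skin, and the copy on F had 11.5 CPM in MT skin and 21.7 CPM in WT skin. Their log2 differences were -1.01 and -0.87 (edgeR adjusted p = 1.81e-06 and 9.02e-05). Both copies of this pair fell in skin. The pair numbered 10, of 2017 bases on C and 1981 bases on D, rose in both tissues. In flesh the copy on C had 417 CPM in MT and 350.1 CPM in WT, and the copy on D had 434 CPM in MT and 319 CPM in WT (log2 differences 0.35 and 0.54, edgeR adjusted p = 0.00708 and 8.29e-05). In skin the copy on C had 78.4 CPM in MT and 50.4 CPM in WT, and the copy on D had 104 CPM in MT and 60.0 CPM in WT (log2 differences 0.68 and 0.84, edgeR adjusted p = 7.98e-05 and 4.89e-06).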

How the data were processed

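Per the labels' protocols, libraries were made from RNA depleted of ribosomal RNA and selected on oligo(dT). The authors deposited unnormalised counts, 1 column for each library, beside gene lengths. The submitters' processing notes name HISAT2 2.0.5, featureCounts and DESeq2 1.40.2 without saying what each did. Build, annotation, strand setting and the treatment of multiply matching reads: not given in the sources used here. Hence overlapping or near-identical genes are uncertain. All 12 columns were matched to libraries by name, with group and replicate from the titles.

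Genes were chosen on CPM from library totals. Tests used edgeR 4.0.16 (R 4.3.3) with filterByExpr at a minimum count of 10 (80351 genes, all 164 among them), TMM scaling, 1 fit of the 4 groups and Benjamini-Hochberg adjustment at 0.05. Printed levels use library totals and log2 differences use TMM, and with library totals the median gene stood at -0.09 in flesh and -0.04 in skin on the log2 scale. The SE is the size of the log2 difference over the root of edgeR's F. The fit was tested on simulated data with known changes put into MT flesh only. The simulation did not check how well changes in skin or in the ratio were found, nor changes of genes near 0 counts. The flesh over skin gap was ranked by mean log2(CPM + 0.5). Named genes are the 2 highest and 2 lowest log2 differences per comparison among passing genes, without overlap of libraries outside the interaction, the 2 highest flesh levels and the 2 widest gaps. The genes, lists and stretches were chosen with earlier results of these data known. Every pair of replicates differed by more than sampling noise, with a chi-square per gene of at least 5.53. Alternatives were library totals, DESeq2 1.42.0, no filter, the replicate number as a block, fits of the 2 groups alone, each library left out, and other limits.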

Additional observations from a re-analysis of the deposited data

Results flagged for a closer look

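In 61 of the 164 genes, MT and WT differed by unequal amounts in the 2 tissues, tested as the interaction term in edgeR. That is 37.2%, against 35.8% of the other 402 genes at this flesh level and 4.55% of all tested genes. Of the 402, 29 reached 4 times the skin level in MT only and 11 in WT only, so the choice of genes bears on the shares of both sets. Of the 164 genes, 58 passed when the 3 with no counts in WT skin were left out. Among the named genes that passed, it is given here as the log2 difference of MT over WT in flesh minus that in skin. It was 2.77 for 01BG002680, 2.29 for 01BG002640, 2.13 for 01CG002140 and 1.51 for 01BG002710, all numbered 01. For 11EG004780, which rose in flesh, it was 0.91, a difference that did not pass without MT flesh replicate 1, WT flesh replicate 3 or WT skin replicate 2. It was -0.87 for 14BG019250, which fell in flesh, and -0.85 for 09DG001600, which rose in skin. For the genes with no counts in WT skin it was -7.83 for 11DG018050, -7.42 for 10CG018600 and -6.67 for 10FG015130, values that depend on the prior count. They met the condition on skin counts through MT skin alone, so the choice of genes bears on these values and they are a description. Groups of 3 libraries were too small for a search for outlying libraries.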

How the results depend on the processing

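Of the counts, the falls in MT flesh were the least stable, with 14 in the fit of all groups, 28 with the flesh libraries alone and 22 with DESeq2. The rises in MT skin numbered 43, and 25 with the skin libraries alone. The choice at 100 CPM in place of 150 gave 262 genes, and CPM with TMM scaling gave 126, all of them among the 164. The cause of these moves was not tested. Leaving out each library in turn gave 34 to 49 rises and 7 to 17 falls in flesh, 37 to 42 rises and 35 to 42 falls in skin, 34 to 45 higher and 19 to 23 lower ratios, and 160 to 165 chosen genes. Same-numbered libraries of the lines did not deviate together, with correlations between -0.0185 and -0.00378 across genes. Same-numbered flesh and skin libraries of a line had correlations between -0.00499 and 0.0129. These values gave no sign that the numbers pair libraries, but 3 replicates per group cannot settle it. With the replicate block, 43 rose and 11 fell in flesh, 42 rose and 36 fell in skin, and 38 ratios were higher and 22 lower. None of the named genes reversed a called direction under the alternatives run. The fall of 10CG018600 in flesh (adjusted p = 0.0307 in edgeR) did not pass with the replicate block or without any single flesh library, where edgeR's adjusted p ran from 0.0687 to 0.133. The higher ratio of 11EG004780 did not pass without MT flesh replicate 1, WT flesh replicate 3 or WT skin replicate 2 (edgeR adjusted p from 0.0544 to 0.0712). Skin libraries are shallower, so 3 counts stand for 0.199 to 0.353 CPM there, against 0.148 to 0.189 CPM in flesh.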
